A study of Bos taurus with 48 samples.

Results

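RNA-seq of subcutaneous fat from 24 heifers of the Norwegian Red breed was available for 2 times in each animal, the age of 12 months and month 7 of gestation, and all 48 of 48 samples of the series entered the comparison described here. The question was whether the difference between heifers reared on high-energy (HE, 12 heifers) and low-energy (LE, 12 heifers) diets was the same at both samplings. At 12 months the heifers were eating the experimental diets. At the second sampling all of them had been moved to a joint low-energy pregnancy diet once they were pregnant, so that HE and LE then name the former diet. Each energy level held 6 heifers on a low-protein (LP) and 6 on a high-protein (HP) diet, and each diet held 3 heifers bred for high milk yield (HMY) and 3 bred for low clinical mastitis (LCM). The second samples were taken at a fixed month of gestation and not at a fixed age, so that the former energy level and the age in gestation cannot be told apart.

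White adipose tissue stores acetate, glucose and fatty acids as triacylglycerol when energy is in excess, and releases fatty acids when it is short. In cattle it is the main site of fatty acid synthesis outside lactation, with acetate as the main carbon source, and the enzymes of that path are controlled together at the level of transcription. Oxidation of fatty acids and the respiratory chain of the mitochondria supply the cells with ATP, and several adipose hormones, among them leptin, follow the amount of fat.

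Between 14815595 and 61027456 reads were counted on genes per sample (median 37909640), and 13718 genes reached a CPM of 2, that is counts scaled to the size of the library, in at least 3 samples. Levels are given as CPM after TMM normalization, and differences on the log2 scale as an estimate ± SE from the quasi-likelihood fits of edgeR over 12 HE and 12 LE heifers, with the FDR of Benjamini-Hochberg over all 13718 genes. A gene was called at an FDR under 0.05. The interaction is the change from 12 months to gestation in HE heifers minus that in LE heifers, and a negative value means that the gene went down more, or up less, in HE heifers. Since the tissue was sequenced in bulk, fewer cells of a type and less RNA per cell cannot be told apart. Of 6 adipocyte markers only CIDEC, a lipid droplet protein, could be matched to an identifier, and its level lay between 809.6 and 2798 CPM in all 48 samples. CIDEC itself moved with the lists described below, with medians of 2324 and 1483 CPM in HE and of 1465 and 1619.9 CPM in LE heifers and an interaction of -0.75 ± 0.18 (FDR = 0.00339), and the part of the amount of adipocyte RNA in those lists was not tested. Skeletal muscle markers (6 of 13 matched) summed to between 0.783 and 296 CPM per sample and smooth muscle markers (4 of 6 matched) to between 59.9 and 6529.9 CPM, and their level varied widely within each group.

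No gene was called with the same sign of the energy effect at both times, and every gene called at both times had opposite signs. The interaction was called for 3752 genes (27.4% of those tested), 1745 of them positive (12.7%) and 2007 negative (14.6%). More genes were called for the change in HE than in LE heifers, since 7427 genes (54.1%) were called for the change in HE heifers, 3985 higher (29%) and 3442 lower (25.1%) in gestation, against 1398 genes (10.2%) in LE heifers, 819 higher (5.97%) and 579 lower (4.22%). At 12 months 886 genes (6.46%) were called between the energy levels, 624 higher (4.55%) and 262 lower (1.91%) in HE heifers. In gestation 702 genes (5.12%) were called, but now 207 were higher (1.51%) and 495 lower (3.61%) in heifers reared on HE. When samples were scaled by library size alone, the split was 3344 positive and 1392 negative for the interaction, 413 higher and 709 lower at 12 months, 320 higher and 320 lower in gestation, 6139 higher and 2145 lower for the change in HE heifers and 1002 higher and 382 lower for that in LE heifers. That scaling moved the median interaction of all genes from 0.05 to 0.17 and the median change in HE heifers from 0.04 to 0.19, while the direction of the gene lists named as higher or lower below was the same under it.

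**Figure D1:**
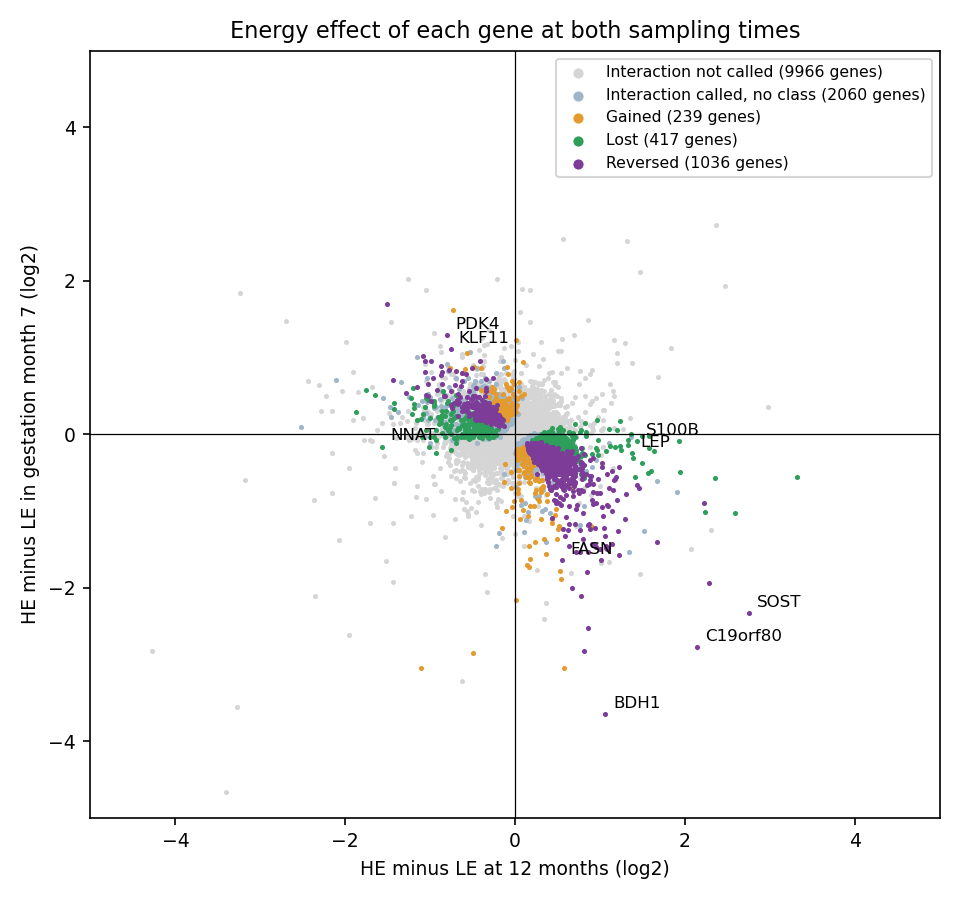
Each point is 1 gene, with the HE minus LE difference at 12 months (log2) on the x axis and in gestation month 7 (log2) on the y axis, coloured by class, and 8 genes lie outside the axes. The 1036 reversed genes fill the lower right and the upper left quadrant, and none of the 204 genes called at both times lies in the upper right or lower left quadrant.

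Genes were sorted into classes from the 3 fits. A gene was taken as reversed when the interaction was called and its estimates had opposite signs with an unadjusted p under 0.05 at both times. A gene that was not reversed was taken as lost or gained when it was called at only 1 time and the interaction was called. Genes called at both times with the same sign were taken as kept. Reversed genes numbered 1036 (7.55%), of which 776 (5.66%) were higher in HE heifers at 12 months and lower in gestation, and 260 (1.9%) the other way round. Of them 203 (1.48%) passed an FDR of 0.05 at both times. A further 417 genes (3.04%) were lost, 239 (1.74%) were gained, 148 (1.08%) were called at 1 time without a call of the interaction, and 2060 (15%) had a called interaction without an energy effect that placed them in a class. Of the 204 genes called at both times, 1 had no called interaction. No gene was kept.

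The count of kept genes was 0 with the quasi-likelihood test and with limma voom, 4 with the likelihood ratio test and 6 with DESeq2, and 45 genes had an unadjusted p under 0.05 with the same sign at both times against 1042 with opposite signs. Of the 886 genes called at 12 months, 772 (87.1%) had the opposite sign in gestation, against 64.5% of all genes tested. By class, 405 of the 886 were reversed, 417 were lost and for 64 the interaction was not called. The counts at single times depended on the heifers in the fit. Without the 4 heifers in which skeletal muscle markers summed to over 100 CPM in a sample (2 HE and 2 LE), the interaction was called for 2847 genes, the energy effect for 558 in gestation and for 10 at 12 months. Without the 4 heifers with over 1000 CPM of smooth muscle markers (3 HE and 1 LE) these counts were 2846, 90 and 433, and without the 4 heifers with over 25% of reads not aligned uniquely (2 HE and 2 LE) they were 3464, 125 and 662. Their part in the counts was not tested further.

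Fatty acid synthesis had the most negative median interaction of the lists (-2.15). Of 20 genes listed for fatty acid synthesis and NADPH supply, 16 could be tested. At 12 months 13 were higher and 1 lower in HE heifers, in gestation 12 were lower and none higher, and the interaction was negative for 15. Their median difference was 0.91 at 12 months and -1.01 in gestation, against -0.03 and 0.01 for all genes tested, and 14 of the 16 were classed as reversed, ACSL4 as lost and FADS2 as unresolved. Without the heifers high in skeletal muscle markers 0 of the 16 were called at 12 months and 11 in gestation, and without those high in smooth muscle markers 11 and 4, with medians of 0.84 and -1.03 and of 0.83 and -0.89. Gene symbols were only at hand for genes that the study had picked for their energy difference in the same samples of 12 months, so the counts at 12 months are no independent evidence of direction, and nor are those of the interaction. The samples of gestation had no part in that choice, although they came from the same heifers. Of the 1006 genes with a symbol, 421 were reversed, 225 lost, 5 gained and 156 had a called interaction in no class. These counts are the background for the interaction calls and class counts of every list given here. Most genes that could enter a list thus had a called interaction. No such background is given here for the calls in gestation. Over all genes tested, 3.61% were called lower and 1.51% higher in HE heifers at that time. The share among genes with a symbol was not counted, so the gestation calls of a list cannot be set against the genes that could enter it.

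FASN, the fatty acid synthase, lay between 8726 and 14135 CPM in HE heifers at 12 months (median 11785) and between 683 and 6700.0 CPM in gestation (median 1358). In LE heifers it lay between 3661 and 17677 CPM (median 7155) and then between 1931 and 10389 CPM (median 4801). FASN was lower in gestation in all 12 HE heifers and in 8 of 12 LE heifers, and the groups overlapped at both times. Its HE minus LE difference was 0.55 ± 0.18 at 12 months (FDR = 0.0641) and -1.64 ± 0.31 in gestation (FDR = 0.00692), with an interaction of -2.23 ± 0.34 (FDR = 0.0001). ACACA, the acetyl-CoA carboxylase that commits carbon to fatty acids, had a median of 2403 CPM in HE heifers at 12 months (1235 to 3482) and of 413 CPM in gestation (198 to 1602). In LE heifers the medians were 1014 (473 to 2565) and 1162 CPM (416 to 2240.4). It thus stood higher in most HE heifers at first and lower in most of them later. The difference of ACACA went from 1.06 ± 0.20 (FDR = 0.00849) to -1.33 ± 0.26 (FDR = 0.00739), with an interaction of -2.41 ± 0.29 (FDR = 2.59e-05).

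SCD, the stearoyl-CoA desaturase, behaved alike, with medians of 16133 (6236 to 21178) and 2189 CPM (933 to 7152) in HE heifers and of 6986 (1978 to 12111) and 6156 CPM (1475 to 9833) in LE heifers. All 12 HE heifers had less SCD in gestation, against 7 of 12 LE heifers, and the interaction was -2.57 ± 0.41 (FDR = 0.000153). ACSS2, which activates acetate, and ACLY, which makes acetyl-CoA from citrate, had interactions of -2.39 ± 0.34 (FDR = 6.57e-05) and -2.35 ± 0.30 (FDR = 3.38e-05). ELOVL6, the elongase of palmitate, had one of -2.29 ± 0.35 (FDR = 0.0001). ACSS2, ACLY, ELOVL6, SCD and ACACA each passed the FDR at both times, in opposite directions. FADS2, the delta-6 desaturase, was the exception in the list. It was lower in HE heifers at 12 months (-0.88 ± 0.21, FDR = 0.0179), was estimated lower in gestation too (-0.44 ± 0.29, FDR = 0.417) and had an interaction of 0.45 ± 0.35 (FDR = 0.353). FADS2 went down in gestation in both groups, by 0.60 ± 0.25 in HE (FDR = 0.045) and by 1.05 ± 0.25 in LE heifers (FDR = 0.00863).

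When the change within each heifer was compared directly between 12 HE and 12 LE heifers by a two-sided permutation test with 100000 resamples, FASN changed by -2.82 ± 0.98 (SD) in HE and -0.59 ± 0.97 in LE heifers (p = 0.0001). For ACACA the changes were -2.30 ± 1.04 and 0.10 ± 0.84 (p = 8e-05), and for SCD -2.88 ± 1.22 and -0.32 ± 0.94 (permutation p = 6e-05). Of the 16 single genes followed in this way, 15 had a called interaction and the same 15 had a permutation p under 0.05, the exception being FADS2 (permutation p = 0.239). These genes were fixed with earlier results of the data known, and the permutation used the same samples as the fits. It is therefore no independent support for the calls. The smallest p these resamples can give is 2e-05.

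The 3 testable genes of triacylglycerol synthesis and the lipid droplet (of 16 listed) and the 6 of cholesterol synthesis (of 24 listed) all had a negative interaction. AGPAT2, which acylates lysophosphatidic acid, lay between 1322 and 2719 CPM in HE heifers at 12 months and between 130.0 and 569 CPM in gestation, which do not overlap. In LE heifers AGPAT2 lay between 564 and 2367 and between 193 and 1354 CPM. Its interaction was -2.03 ± 0.29 (FDR = 7.5e-05), and it fell by 0.75 ± 0.20 in LE heifers as well (FDR = 0.0211). CIDEC was lost, with an energy effect of 0.54 ± 0.16 at 12 months (FDR = 0.041) and -0.15 ± 0.12 in gestation (FDR = 0.528). All 6 genes of cholesterol synthesis were reversed, 5 being called at 12 months and all 6 in gestation, against 0 and 6 without the heifers high in skeletal muscle markers and 4 and 2 without those high in smooth muscle markers. The largest interaction among them was that of IDI1, the isopentenyl diphosphate isomerase (-2.44 ± 0.37, FDR = 9.75e-05), and the smallest that of SC5D, a sterol desaturase (-0.76 ± 0.14, FDR = 0.000403).

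C19orf80, which encodes the liver and fat hormone ANGPTL8, an inhibitor of lipoprotein lipase action that rises with feeding, showed the second largest interaction among the single genes shown here, after SOST. In HE heifers C19orf80 lay between 189.8 and 690.4 CPM (median 319) at 12 months and between 1.31 and 108 CPM (median 10.2) in gestation. In LE heifers it lay between 19.1 and 484 CPM (median 53.3) and between 17.2 and 219 CPM (median 76.5). The ranges of the HE heifers did not overlap between the times, whereas those of LE heifers lay on each other. Its energy effect was 2.14 ± 0.41 at 12 months (FDR = 0.00869) and -2.77 ± 0.66 in gestation (FDR = 0.0186), with an interaction of -5.33 ± 0.64 (FDR = 2.59e-05). The changes of HE and LE heifers in C19orf80 did not overlap, which held for 28 of all genes tested (0.204%), AGPAT2, NQO1, PRDX1, QPRT, REXO2, SOST and TIMM23 among them.

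**Figure D2:**
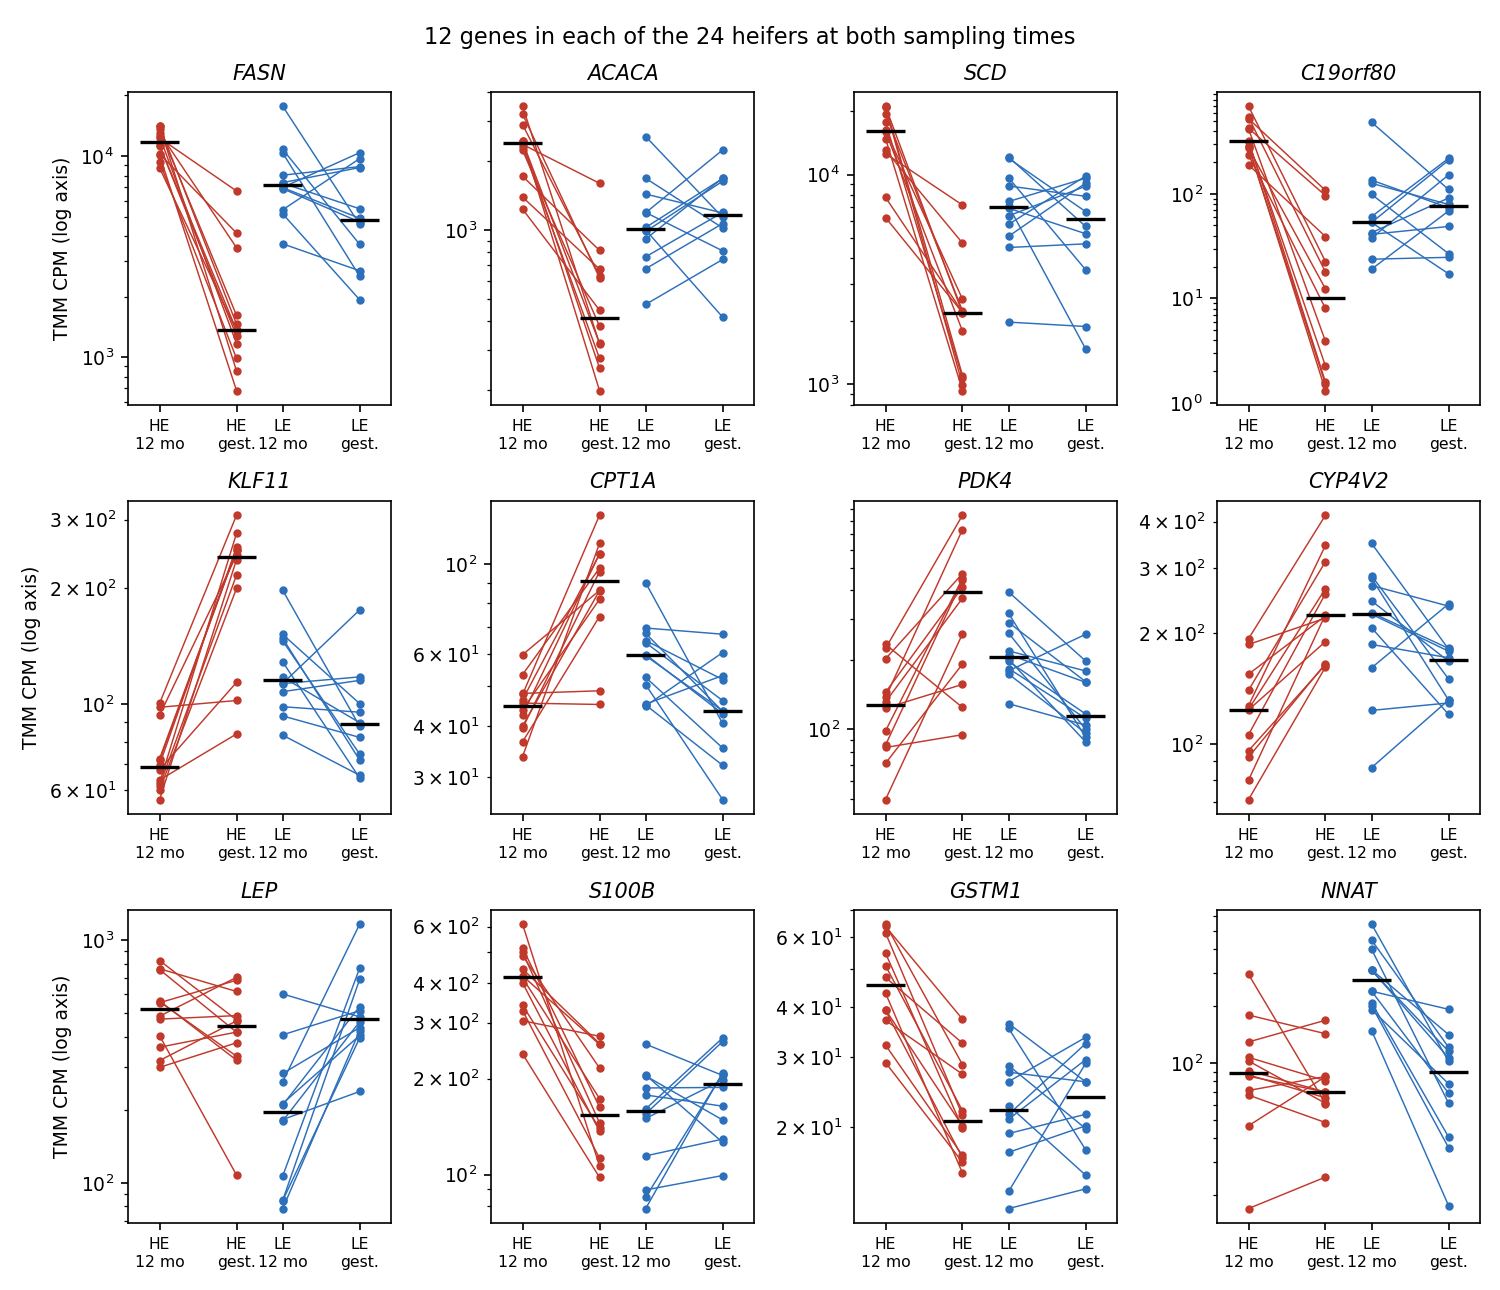
Lines join the TMM CPM (log axis) of single heifers at 12 months and in gestation, in red for 12 HE and in blue for 12 LE heifers, with group medians in black. FASN, ACACA, SCD and C19orf80 go down in 12 of 12 HE heifers, KLF11 and CYP4V2 go up in 12 of 12, and LEP and NNAT move mainly in LE heifers.

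Other genes were lower in HE heifers at 12 months and higher in gestation. KLF11, a Krüppel-like transcription factor, had the smallest p of all positive interactions. It lay between 56.8 and 101 CPM (median 68.9) in HE heifers at 12 months and between 83.9 and 308 CPM (median 239.5) in gestation. In LE heifers it lay between 83.3 and 197 CPM (median 115) and between 64.5 and 175 CPM (median 88.8). KLF11 was higher in gestation in 12 of 12 HE heifers and in 3 of 12 LE heifers, and its interaction was 1.86 ± 0.20 (FDR = 9.23e-06). CPT1A, the carnitine palmitoyltransferase that admits fatty acids to the mitochondria, and PDK4, a kinase that shuts off pyruvate dehydrogenase, were reversed in the same sense. The energy effect of CPT1A was -0.41 ± 0.11 at 12 months (FDR = 0.0254) and 0.95 ± 0.16 in gestation (FDR = 0.00505). That of PDK4 was -0.80 ± 0.23 (FDR = 0.0399) and 1.29 ± 0.28 (FDR = 0.0123). The median level of PDK4 went from 128 to 391.9 CPM in HE heifers and from 206 to 114 CPM in LE heifers, and PDK4 was higher in gestation in 11 of 12 HE heifers but in 1 of 12 LE heifers.

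CPT1A and PDK4 ran against the rest of their list. Of 7 testable genes of lipolysis and fatty acid oxidation (25 listed), these 2 had a positive interaction and the other 5 a negative one. ECHS1, the enoyl-CoA hydratase of beta-oxidation, had an interaction of -1.29 ± 0.20 (FDR = 0.000104). ACAA2, the thiolase, was lost, and the other 6 members were reversed. CYP4V2, a fatty acid hydroxylase, belonged to the 10 positive interactions with the smallest p, at 1.31 ± 0.19 (FDR = 7.6e-05). So did SLC37A1, a sugar phosphate exchanger (1.09 ± 0.16, FDR = 7.6e-05), OLFML2B, an extracellular protein (1.11 ± 0.16, FDR = 8.36e-05), and EVC2, a protein of the primary cilium (0.65 ± 0.09, FDR = 7.65e-05). GRB10, an imprinted adaptor that binds the insulin receptor, changed in opposite directions in the energy levels, by 0.44 ± 0.10 in HE (FDR = 0.000759) and -0.52 ± 0.10 in LE heifers (FDR = 0.00187). GRB10 was lower in gestation in 12 of 12 LE heifers and higher in 10 of 12 HE heifers. The remaining 2 genes of the 10, ENSBTAG00000000566 (0.75 ± 0.11, FDR = 6.72e-05) and ENSBTAG00000020060 (1.08 ± 0.16, FDR = 8.35e-05), had no symbol.

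The electron transport chain and ATP synthase formed the largest reversed list. Of 64 genes listed, 46 could be matched, as 47 identifiers because COX7C had 2. All 47 had a called negative interaction, between -1.31 and -0.55, and all 47 were lower in gestation in HE heifers, whereas 6 were called lower in LE heifers. At 12 months 38 were called higher in HE heifers and in gestation 32 were called lower, and 43 were classed as reversed, 3 as lost and 1 in no class. Differences at 12 months lay between 0.29 and 0.80 (median 0.45) and those in gestation between -0.70 and -0.19 (median -0.39), so that no member had the same sign at both times.

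Every complex shared in the change of sign, but not equally in the calls at single times. Of 3 genes of complex II, 1 was called at 12 months and 1 in gestation, and of 10 entries of complex IV, 8 and 5. Of complex I, which oxidizes NADH, 21 subunits were tested, 17 being called at 12 months, 14 in gestation and 18 reversed. All 7 genes of complex III and all 6 of the ATP synthase were reversed, with median interactions of -1.02 and -0.77, against -0.79 in complex I, -0.89 over 10 entries of complex IV and -0.68 over 3 genes of complex II. NDUFA10, a subunit of complex I, had the largest interaction of the list together with UQCRFS1 of complex III. NDUFA10 lay between 100.2 and 290.1 CPM (median 199) in HE heifers at 12 months and between 49.5 and 75.3 CPM (median 53.1) in gestation. In LE heifers it lay between 72 and 162 CPM (median 107) and between 56 and 118 CPM (median 82.3). Its interaction was -1.31 ± 0.19 (FDR = 6.65e-05), and that of UQCRFS1 was -1.31 as well. The smallest was that of COX4I1 of complex IV (-0.55 ± 0.13, FDR = 0.00341). All 47 interactions were called in each of the fits that left out the heifers with muscle markers or with many reads not aligned uniquely. The calls at single times were not as firm, with 21 at 12 months and 2 in gestation without the heifers high in smooth muscle markers, 0 and 21 without those high in skeletal muscle markers, and 35 and 4 without those with many reads not aligned uniquely, although the medians stayed between 0.45 and 0.51 at 12 months and between -0.40 and -0.33 in gestation.

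Central carbon metabolism moved with the respiratory chain. All 12 testable genes of the tricarboxylic acid cycle (18 listed) had a negative interaction, 9 were called higher in HE heifers at 12 months and 7 lower in gestation, and 10 were reversed. PDHB, a subunit of pyruvate dehydrogenase, had the smallest interaction (-0.66 ± 0.13, FDR = 0.000839). Without the heifers high in skeletal muscle markers these calls were 0 at 12 months and 6 in gestation, and without those high in smooth muscle markers 6 and 0, while all 12 interactions were called in both. Of glycolysis and glucose uptake, 9 identifiers of 8 genes (18 listed) were tested. All 9 had a negative interaction and 8 were reversed, 8 being called at 12 months and 5 in gestation, against 0 and 3 without the heifers high in skeletal muscle markers and 7 and 1 without those high in smooth muscle markers. HK2, the hexokinase of insulin-sensitive tissues, had an interaction of -1.57 ± 0.41 (FDR = 0.00666) and was lower in gestation in 11 of 12 HE heifers but in 2 of 12 LE heifers. ENO1, the enolase, had one of -0.69 ± 0.10 (FDR = 9.62e-05).

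**Figure D3:**
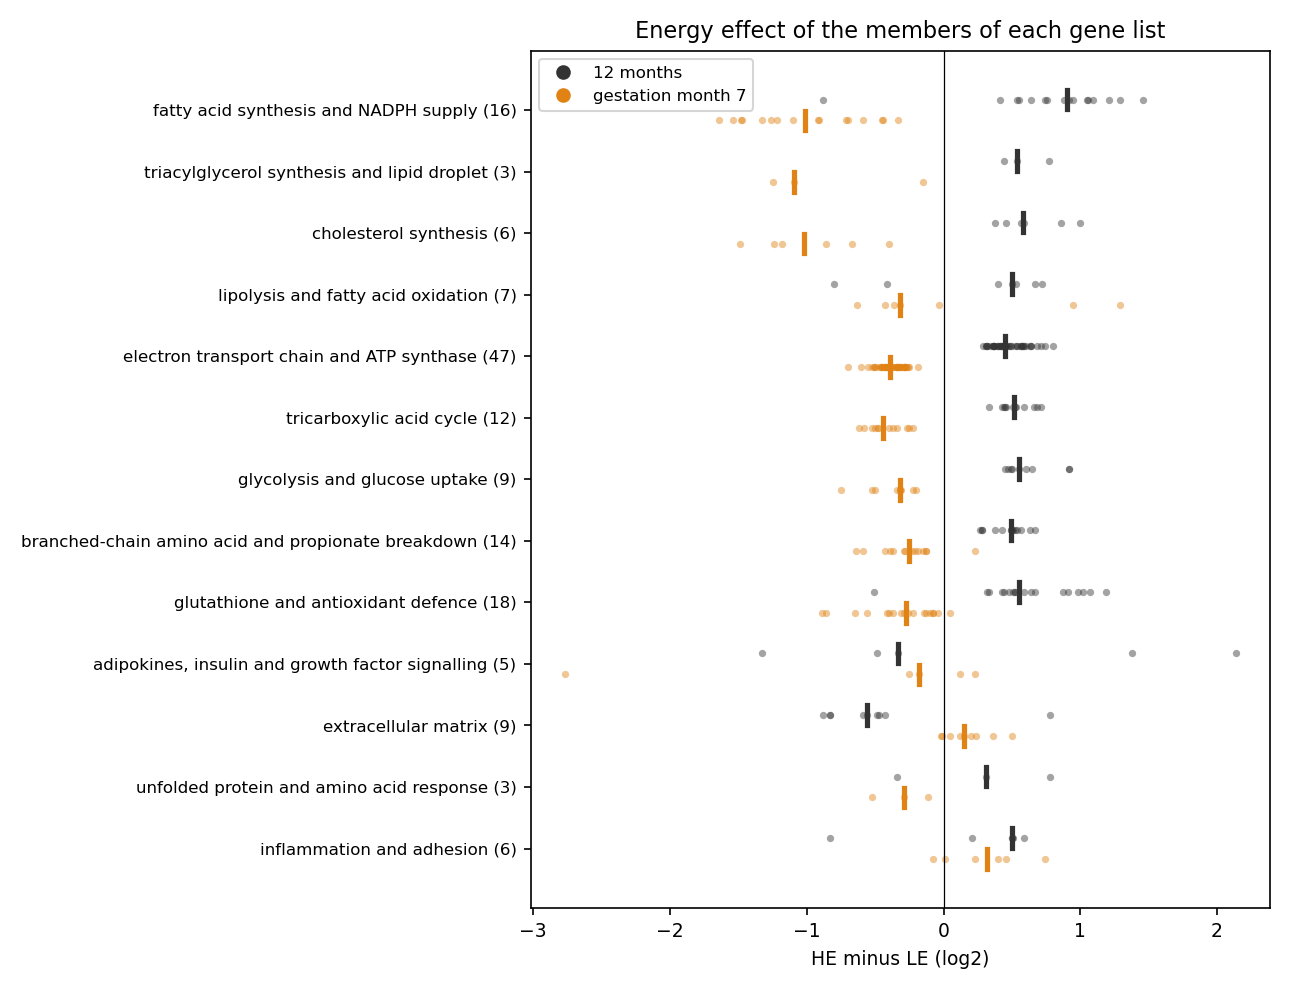
Points are the members of each gene list (number tested in brackets) by their HE minus LE difference (log2), dark at 12 months and orange in gestation month 7, with the median as a bar. Medians lie above 0 at 12 months and below 0 in gestation in the 9 lists from fatty acid synthesis to glutathione, and those of the extracellular matrix are -0.56 and 0.15.

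For branched-chain amino acid and propionate breakdown, 14 genes of 20 were tested, of which 13 had a negative interaction, but only 5 were called at 12 months and 3 in gestation (0 and 2 without the heifers high in skeletal muscle markers, 2 and 0 without those high in smooth muscle markers). BCAT2, the mitochondrial aminotransferase of leucine, isoleucine and valine, had the largest (-1.12 ± 0.21, FDR = 0.000542). Of glutathione and antioxidant defence, 18 identifiers of 17 genes (35 listed) were tested and 17 had a negative interaction. At 12 months 12 were higher and 1 lower, in gestation 6 were lower, and 10 were classed as reversed and 4 as lost. Without the heifers high in skeletal muscle markers 3 were called at 12 months and 5 in gestation, and without those high in smooth muscle markers 8 and 0. GSTT1, a glutathione transferase, was reversed (0.91 ± 0.19, FDR = 0.0118, and -0.86 ± 0.19, FDR = 0.0124). PRDX1, a peroxiredoxin, had an interaction of -1.03 ± 0.11 (FDR = 1.25e-05) and lay between 161 and 342 CPM in HE heifers at 12 months, between 98.4 and 165 CPM in gestation, and between 133 and 203 and between 139 and 215 CPM in LE heifers. GPX7, a glutathione peroxidase of the endoplasmic reticulum, had the only positive estimate of the list, at 0.41 ± 0.21 (FDR = 0.144).

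Averaged over the members of a list, every HE heifer had lower expression in gestation for all lists of lipid synthesis, oxidation, respiration, glycolysis, amino acid breakdown and antioxidant defence. For fatty acid synthesis the mean change lay between -2.85 and -1.14 in HE heifers (median -2.14) and between -1.11 and 0.73 in LE heifers (median -0.22), without overlap. For the respiratory chain it lay between -1.44 and -0.58 in HE heifers (median -1.12) and between -0.79 and 0.30 in LE heifers (median -0.16), where 8 heifers were lower and 4 higher. For glycolysis 5 LE heifers were lower and 7 higher, with a median of 0.23 against -0.85 in HE heifers. For lipolysis and fatty acid oxidation 10 LE heifers were lower as well and 2 higher. There the mean change lay between -0.95 and 0.23 in LE heifers (median -0.29). In HE heifers it lay between -0.72 and -0.16 (median -0.5). Fatty acid synthesis was the only list in which HE and LE heifers did not overlap.

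**Figure D4:**
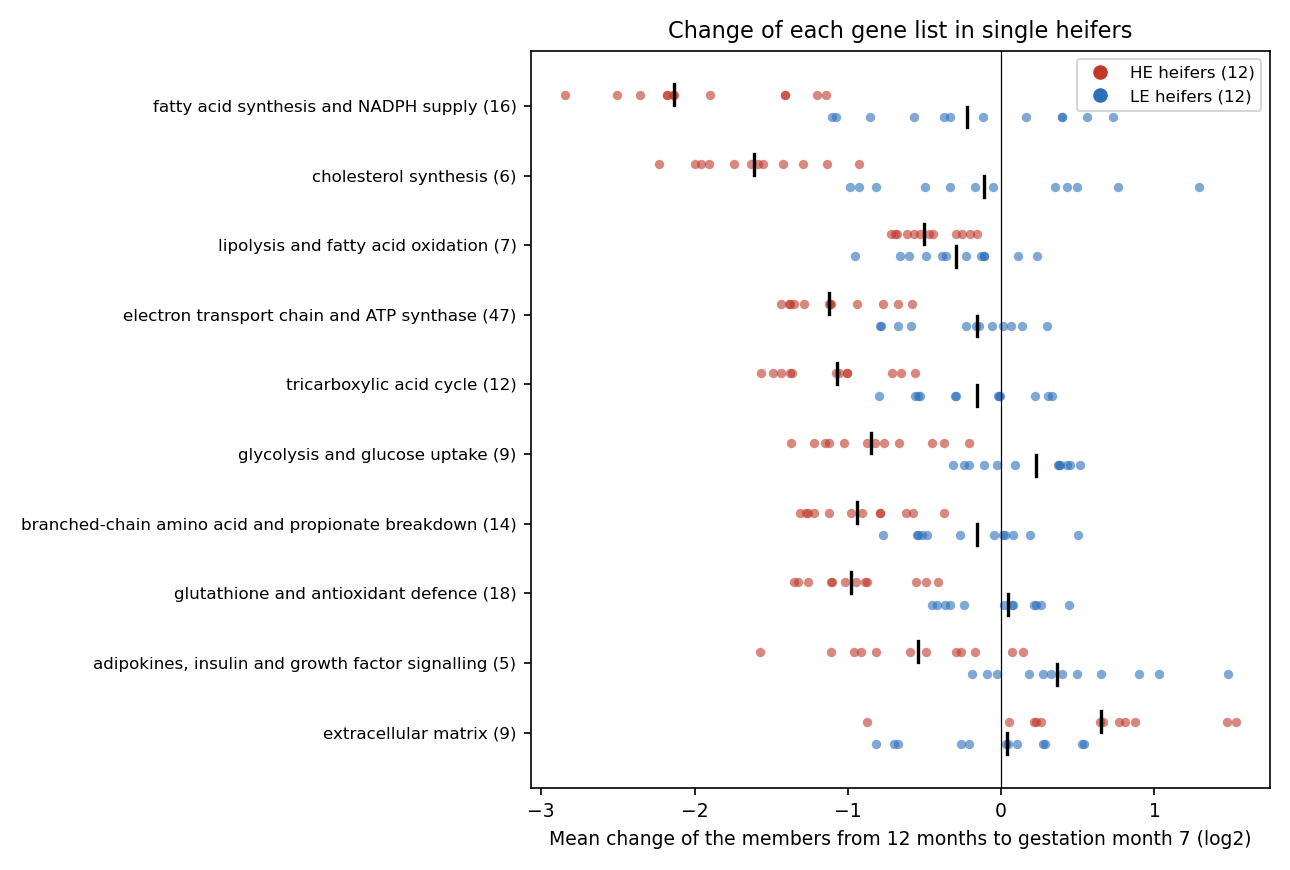
Points are single heifers, with the change from 12 months to gestation month 7 averaged over the members of each list (log2) on the x axis, in red for 12 HE and in blue for 12 LE heifers, and a bar at the median. All 12 HE heifers lie below 0 from fatty acid synthesis down to glutathione, while LE heifers lie on both sides of 0. The members were matched among genes picked in the samples of 12 months.

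Further genes with the smallest p among negative interactions came from several paths. BDH1, the 3-hydroxybutyrate dehydrogenase of ketone body use, had medians of 93.1 (38.2 to 221) and 1.46 CPM (0.23 to 21.5) in HE heifers, against 37.9 (12.5 to 235) and 21.3 CPM (3.45 to 107) in LE heifers. BDH1 was lower in gestation in all 12 HE heifers and in 7 of 12 LE heifers. Its interaction was -4.62 ± 0.49 (FDR = 9.23e-06), and its energy effect went from 1.06 ± 0.40 (FDR = 0.0951) to -3.65 ± 0.58 (FDR = 0.00394). SOST, which encodes sclerostin, an inhibitor of Wnt signalling, had the largest interaction of the genes named by rule, at -5.46 ± 0.61 (FDR = 1.25e-05). SOST fell by 3.89 ± 0.44 in HE heifers (FDR = 1.84e-07) and rose by 1.57 ± 0.43 in LE heifers (FDR = 0.0209), with medians of 23.9 and 1.85 CPM against 2.59 and 8.98 CPM.

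DEGS1, the dihydroceramide desaturase (-0.93 ± 0.11, FDR = 1.71e-05), TIMM23, a pore of protein import into mitochondria (-1.21 ± 0.15, FDR = 2.59e-05), and REXO2, a mitochondrial ribonuclease (-1.01 ± 0.12, FDR = 2.59e-05), were reversed as well. QPRT, which makes NAD precursors from tryptophan, was reversed with an interaction of -2.09 ± 0.26 (FDR = 2.59e-05). TDH, the threonine dehydrogenase, was reversed by the unadjusted p, with 2.22 ± 0.56 at 12 months (FDR = 0.023), -0.89 ± 0.42 in gestation (FDR = 0.223) and an interaction of -3.17 ± 0.56 (FDR = 0.000358). The gene with the smallest p of all, ENSBTAG00000005504, had no symbol. Its level was low, with medians of 7.68 and 1.9 CPM in HE heifers and 4.09 and 3.96 CPM in LE heifers, and its interaction was -1.85 ± 0.18 (FDR = 4.8e-06).

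Some of the strongest energy effects of 12 months were lost without a reversal, and they were lost in 2 ways. In the first, HE heifers came down to the level of LE heifers. S100B, a calcium-binding protein of adipocytes, had a median of 417 CPM in HE heifers (239 to 611) and of 158 CPM in LE heifers (78.3 to 257) at 12 months, against 154 (98.1 to 272) and 193 CPM (99.4 to 269) in gestation. S100B was lower in gestation in 12 of 12 HE heifers and in 4 of 12 LE heifers. Its energy effect was 1.44 ± 0.18 (FDR = 0.000319) and then -0.09 ± 0.19 (FDR = 0.827), with an interaction of -1.58 ± 0.25 (FDR = 0.000144). GSTM1, a glutathione transferase, went from 0.98 ± 0.15 (FDR = 0.00543) to -0.08 ± 0.16 (FDR = 0.816), and NQO1, a quinone reductase, from 1.07 ± 0.19 (FDR = 0.00642) to -0.22 ± 0.12 (FDR = 0.32). SERPINA5, a serine protease inhibitor, went from 1.93 ± 0.34 (FDR = 0.00642) to -0.09 ± 0.19 (FDR = 0.818). For each of GSTM1, NQO1 and SERPINA5 all 12 HE heifers were lower in gestation.

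In the second, LE heifers moved to the level of HE heifers. LEP, the gene of leptin, had a median of 196 CPM in LE heifers at 12 months (78.4 to 601) and of 473 CPM in gestation (238 to 1166), and was higher in gestation in 11 of 12. In HE heifers it had medians of 520.1 (299.6 to 826) and 442 CPM (108 to 704), and was higher in 6 and lower in 6 of 12. The rise of LEP was 1.44 ± 0.23 in LE heifers (FDR = 0.000384), the change in HE heifers was -0.28 ± 0.23 (FDR = 0.3), and the interaction was -1.73 ± 0.32 (FDR = 0.000531). LEP thus differed by 1.38 ± 0.28 between the energy levels at 12 months (FDR = 0.0101) and by -0.25 ± 0.23 in gestation (FDR = 0.583). NNAT, the imprinted neuronatin gene, was its counterpart, being lower in HE heifers at 12 months by 1.57 on the log2 scale (-1.57 ± 0.29, FDR = 0.00662). It fell by 1.87 ± 0.23 in LE heifers (FDR = 3.46e-05), where the median went from 274 (148 to 541) to 89.9 CPM (17.6 to 192) and all 12 heifers were lower in gestation. In HE heifers the medians of NNAT were 88.9 and 70.3 CPM, and the difference in gestation was -0.16 ± 0.27 (FDR = 0.778).

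Gained effects were mostly in genes without a symbol, since only 5 of the 239 had one. GLYAT, a mitochondrial acyltransferase for glycine, had the smallest interaction p among them (-1.84 ± 0.27, FDR = 8.8e-05). Its energy effect was 0.52 ± 0.28 at 12 months (FDR = 0.252) and -1.20 ± 0.23 in gestation (FDR = 0.00699), with medians of 271 (160.3 to 402) and 57.5 CPM (27.2 to 139) in HE heifers and of 153 (72.8 to 670.3) and 132 CPM (50.3 to 216) in LE heifers. The range of GLYAT in HE heifers thus lay wholly below its earlier range. Among genes higher in former HE heifers, ENSBTAG00000018142 (0.59 ± 0.14 in gestation, FDR = 0.02) was lower in gestation in 12 of 12 LE heifers. Levels of HE and LE heifers did not overlap for 1 gene in gestation (0.00729%) and for 0 at 12 months. That gene, ENSBTAG00000002534, was singled out after its values were seen and lay between 11.5 and 15.6 CPM in former HE heifers and between 15.7 and 23.6 CPM in LE heifers.

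The median interaction of matrix genes was positive (0.69), while those of the metabolic lists were negative. This contrast is no independent evidence, since the interaction contains the difference at 12 months, for which the genes with a symbol were picked. The median difference of the matrix genes was -0.56 at 12 months and 0.15 in gestation. Of 9 testable extracellular matrix genes (28 listed), 4 had a positive and 1 a negative interaction, 3 were lower and 1 higher in HE heifers at 12 months, and none was called in gestation. ELN, the gene of elastin, had the largest (1.37 ± 0.40, FDR = 0.0143), and XYLT1, which starts proteoglycan chains, was the negative one (-0.73 ± 0.27, FDR = 0.0441), called in only 10 of the 24 fits that left out 1 heifer (FDR up to 0.0772). The interaction of 2 matrix genes was called, both positive, without the heifers high in smooth muscle markers, and likewise without those high in skeletal muscle markers. Of 5 adipokine, insulin and growth factor genes (24 listed) LEP and C19orf80 had a called interaction, and of 6 inflammation and adhesion genes (20 listed) VCAM1 did (-0.65 ± 0.18, FDR = 0.00986). Of 3 genes of the unfolded protein and amino acid response (20 listed) 2 did, with PSAT1, a serine synthesis enzyme, at -1.29 ± 0.29 (FDR = 0.00228) and XBP1, a transcription factor, at 0.22 ± 0.15 (FDR = 0.294). None of the 20 cell cycle genes could be matched.

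None of the matched markers of skeletal muscle (6 of 13 listed), smooth muscle (4 of 6), Schwann cells (3 of 5) or keratinocytes (1 of 7, DSP) had a called interaction. The summed skeletal muscle markers had medians of 1.37 and 2.39 CPM in HE and of 8.59 and 2.14 CPM in LE heifers, with MYLPF at 0 in at least 1 sample of every group, and those of smooth muscle 167 and 307 CPM in HE and 431 and 369.8 CPM in LE heifers. The direction of the medians followed that of the matrix genes, and their part in the results was not tested. PI16 was the only match among 5 listed markers of fibroblasts and preadipocytes. It had an interaction of 1.28 ± 0.34 (FDR = 0.00722), rising by 1.28 ± 0.24 in HE heifers (FDR = 0.000107). Of the markers listed for leukocytes (8), lymphocytes (7), endothelium (6) and red blood cells (4), 0 could be matched to an identifier. The content of these cells could therefore not be assessed.

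The median interaction of each list of lipid, energy and amino acid metabolism was negative at both protein levels. With 12 heifers in each fit, the interaction was called for 1712 genes in LP and for 52 genes in HP heifers, but no gene was called for the difference between the protein levels with the quasi-likelihood test, the likelihood ratio test or limma voom (198 genes with an unadjusted p under 0.05). The median interaction of the respiratory chain was -1.0 in LP and -0.70 in HP heifers, with all 47 negative in both, but 47 were called in LP and 1 in HP heifers. That of fatty acid synthesis was -2.22 and -1.95, with 15 and 6 called. Of the tricarboxylic acid cycle 12 and 0 were called, of glycolysis 9 and 0, and of branched-chain amino acid breakdown 13 and 0. The median of the inflammation list differed in sign, at -0.76 in LP and 0.86 in HP heifers. In HMY and LCM heifers these medians were -0.71 and -0.96 for the respiratory chain and -1.99 and -1.90 for fatty acid synthesis. For C19orf80 the interaction was -5.17 ± 0.99 in LP and -5.48 ± 0.75 in HP heifers, and for FASN -2.28 ± 0.49 and -2.18 ± 0.39. Of the 16 genes fixed by name TDH differed most, at -4.23 ± 0.62 and -2.04 ± 0.78, a difference of 2.18 ± 1.03 (FDR = 1). The smallest p of all genes was that of SELE, an endothelial adhesion molecule, with a difference of 3.77 ± 0.93 (FDR = 1).

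**Figure D5:**
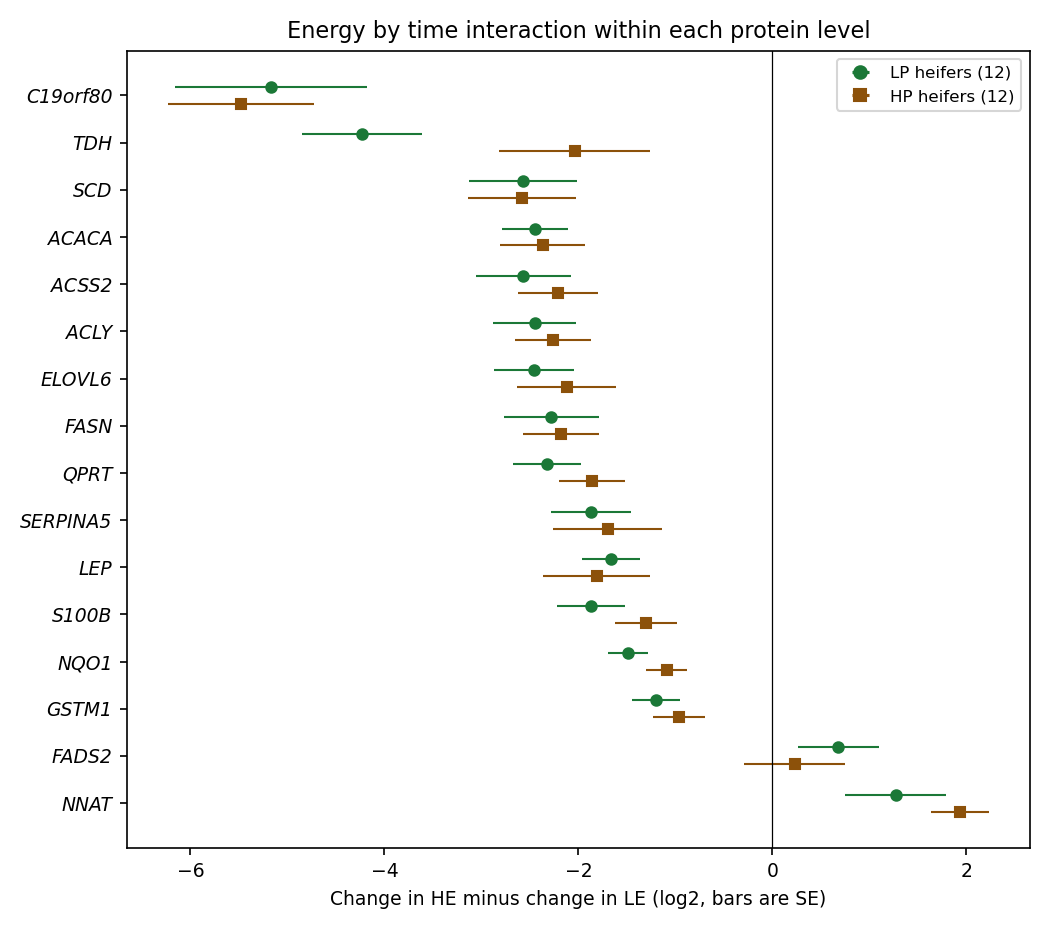
The energy by time interaction (log2, bars are SE) of 16 genes is plotted separately for 12 LP heifers (circles) and 12 HP heifers (squares). Estimates of each gene have the same sign at both protein levels, negative for 14 genes and positive for FADS2 and NNAT.

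Within the HE heifers, those of 1 diet and pedigree stood apart in gestation. This was noticed after the values were seen and is given without a test. In the 3 LPHE heifers bred for high milk yield, FASN was at 3503, 4141 and 6700.0 CPM in gestation, against 683 to 1615 CPM in the other 9 HE heifers and 1931 to 10389 CPM in LE heifers. Their FASN was thus within the range of LE heifers and above all other HE heifers. KLF11 was at 83.9, 102 and 114 CPM in the 3 heifers, against 199 to 308 CPM in the other 9 and 64.5 to 175 CPM in LE heifers. PDK4, at 94.9, 125 and 157 CPM against 192 to 847 CPM, did not overlap either, nor did C19orf80, at 39.1, 96.4 and 108 CPM against 1.31 to 22.5 CPM, or ACACA, at 674, 815 and 1602 CPM against 198 to 632 CPM. SCD, at 2195 to 7152 CPM against 933 to 2545 CPM, and CPT1A, at 45.2 to 81.8 CPM against 74.3 to 132 CPM, did overlap. For LEP the 3 heifers lay between 466 and 704 CPM, inside the range of 108 to 685 CPM of the other 9.

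Over all genes tested, the 3 heifers lay above the other 9 HE heifers in gestation for 155 genes (1.13%) and below them for 108 (0.787%), and at 12 months for 68 (0.496%) and 50 (0.364%). Of the 16 genes of fatty acid synthesis they lay above for 5 in gestation and for 0 at 12 months, and of the 47 entries of the respiratory chain for 10 and 0. For branched-chain amino acid breakdown (14) and for glutathione and antioxidant defence (18) the number above was 0 at both times. The labels give no age or date of conception for single heifers.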

How the data were processed

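RNA of all 48 samples was sequenced by the authors, who trimmed reads with cutadapt (version 1.3), aligned them to UMD3.1 with TopHat2 (version 2.0.12) and counted them per gene with HTSeq. The deposited values are raw counts without normalization. The 5 summary rows of each file were dropped. Genes with 2 CPM in at least 3 samples were kept, scaled with TMM and tested with the quasi-likelihood F test of edgeR (version 4.0.16). For the interaction and the changes, heifer was a block, with time by protein and time by pedigree as covariates. The numbers in the titles name the animals, and deviations of both samples of a heifer correlated with a median of 0.316 (0.0229 to 0.592). For only 9 of the 24 heifers was the best correlation that with the other sample of the same heifer. For the energy effect, each time was fitted alone with protein and pedigree. DESeq2 (version 1.42.0), limma (version 3.58.1) and the likelihood ratio test were alternatives. Only the interaction fits of edgeR and limma voom were tried on simulated counts. The fits of single times, DESeq2 and the sorting into classes were not. Single genes used log2(CPM + 0.5). Symbols of 1006 genes came from the tables of the study, which hold genes chosen at 12 months. The classes, lists and named genes (smallest p, list extremes, a fixed set) were chosen with earlier results of these data known. No sample was left out. The SE and p-values of the interaction and of the changes reflect how the change within a heifer varied between heifers. Those of the energy effect at 1 time reflect the spread of levels between heifers. Results for some genes are not reported here.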

Additional observations from a re-analysis of the deposited data

Results flagged for a closer look

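The energy effect differed between the times for 3752 genes by the test of the difference itself. The interactions (log2, HE minus LE change, edgeR quasi-likelihood test) of the genes named by rule are given here as values. Among those with the smallest p, they were -1.85 for ENSBTAG00000005504, -4.62 for BDH1, -1.03 for PRDX1, -5.46 for SOST and -0.93 for DEGS1. They were -5.33 for C19orf80, -0.72 for ENSBTAG00000025617, -1.21 for TIMM23, -1.01 for REXO2 and -2.41 for ACACA. Positive interactions were 1.86 for KLF11, 1.36 for CPT1A, 2.14 for PDK4, 0.75 for ENSBTAG00000000566 and 1.09 for SLC37A1. They were 1.31 for CYP4V2, 0.65 for EVC2, 0.96 for GRB10, 1.08 for ENSBTAG00000020060 and 1.11 for OLFML2B. Of the genes fixed by name, the interaction was -3.17 for TDH, 1.61 for NNAT, -1.79 for SERPINA5, -1.58 for S100B and -2.29 for ELOVL6. It was -2.39 for ACSS2, -1.73 for LEP, -2.23 for FASN, -2.35 for ACLY, -2.09 for QPRT, -1.29 for NQO1, -1.08 for GSTM1 and -2.57 for SCD.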

How the results depend on the processing

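Most single-time counts moved with the samples in the fit. Under library size scaling the share of positive calls went from 70.4% to 36.8% at 12 months, from 29.5% to 50% in gestation and from 46.5% to 70.6% for the interaction. The interaction (3752 genes) gave 1712 in LP, 52 in HP, 1885 in HMY and 1004 in LCM heifers alone, each with 12 heifers, and 2571 with no replicate block. The change in LE heifers (1398 genes) gave 2232 at an FDR of 0.1, 743 without the heifers with skeletal muscle markers and 623 with no replicate block. The energy effect at 12 months (886 genes) gave 1970 at an FDR of 0.1, 1609 with DESeq2, 1410 with limma voom, 1840 with all 48 samples in 1 fit, 27 in LP, 0 in HP, 140 in HMY and 0 in LCM heifers, and 433 and 10 without the heifers with smooth and skeletal muscle markers. In gestation (702 genes) these were 1344, 1216, 264, 376, 1, 0, 0 and 212, with 465 without a filter on low counts, 90 without the heifers with smooth muscle markers and 125 without those with many reads not unique. Lost genes (417) numbered 1046 at an FDR of 0.1, 806 with DESeq2, 634 with library size, 750 with limma voom, and 225 and 8 without the heifers with smooth and skeletal muscle markers. Gained genes (239) numbered 548, 440, 145 without a filter, 92 with limma voom, 36 without the heifers with smooth muscle markers and 29 without those with many reads not unique. Kept genes (0) numbered 8 at an FDR of 0.1, 4 with the likelihood ratio test, 6 with DESeq2, 1 with RLE size factors, 1 with at least 10 counts in every sample and 5 without protein and pedigree. Calls of the interaction in the matrix list (5) were 2 without the heifers of either muscle set, those in the inflammation list (1) were 2 without the heifers with many reads not unique, and those of the single genes (15) were 8 in HP heifers. The sets of heifers were chosen after seeing the data. The causes were not tested.

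Leaving out 1 heifer at a time gave 386 to 1903 genes at 12 months, 347 to 1040 in gestation, 3144 to 4259 for the interaction, 6727 to 7685 for the change in HE and 946 to 1577 in LE heifers, 839 to 1130 reversed, 153 to 996 lost, 117 to 386 gained, 0 to 2 kept, and 15 of the single genes each time. At 12 months the count moved by over 1.5 times without heifer 1 (541; heifers are numbered as in the labels), 2 (566), 4 (1373), 5 (472), 9 (524), 12 (1398), 13 (570), 14 (474), 15 (1903), 18 (386) or 19 (421). In gestation it did so without heifer 7 (446), 8 (432), 10 (347), 14 (437) or 16 (397).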
